A study of Mus musculus with 18 samples.

Results

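The comparison set all 6 libraries of the tissue labelled MDTH against all 6 libraries of the tissue labelled HPF, which its description calls thalamus and hippocampus. These are 12 of the 18 libraries of the series. The 4 groups are MDTH from high performers, MDTH from low performers, HPF from high performers and HPF from low performers, with 3 libraries each. Every animal belonged to the Diversity Outbred stock, an outbred mouse population whose animals are genetically unlike one another. High and low refer to short-term memory, and the labels give no treatment, age or sex. Of the 48440 genes measured, 18196 had a mean of at least 10 normalized counts over the 12 libraries and were tested. The tissue difference is the mean of MDTH minus the mean of HPF on the log2(normalized count + 1) scale, with high and low performers weighted equally. This scale understates the difference of genes with low values.

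The thalamus is a set of nuclei of the diencephalon that relays signals to and from the cerebral cortex, and its mediodorsal nucleus exchanges projections with the prefrontal cortex. The hippocampal formation belongs to the telencephalon and holds the granule cells of the dentate gyrus and the pyramidal cells of the CA fields, a circuit known for its part in memory. In rodents, most thalamic relay neurons load glutamate into vesicles with the transporter VGLUT2, encoded by Slc17a6, whereas most hippocampal principal neurons use VGLUT1, encoded by Slc17a7. Local inhibitory neurons are plentiful in the hippocampus and scarce in most rodent thalamic nuclei, where the inhibitory supply comes largely from the reticular nucleus.

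The estimated depth was 42907281 to 47703337 reads per MDTH library and 76105118 to 87635499 reads per HPF library, so MDTH values carry more counting error. All MDTH libraries carry 1 lane tag in their names and the HPF libraries carry others, so lane tag and tissue cannot be told apart. On the first principal component, which held 52.4% of the variance, the MDTH libraries lay between 65.7 and 90.2 and the HPF libraries between -87.5 and -82.7, except replicate 2 of the HPF high performers at -59.1. That library stood apart. It held 2984 normalized counts of Tcf7l2 and 3954 of Slc17a6, whereas the other HPF libraries held 151 to 301 of Tcf7l2 and 132 to 392 of Slc17a6. Summed over choroid plexus and ependymal genes, the level was 15029 to 27307 normalized counts in MDTH, 233267 in that library and 9755 to 16823 in the other HPF libraries. Among the 147 genes named by rule, leaving it out moved the fold by over 1.5 times for Foxb1 and ended the calls of Hba-a1, Hba-a2 and mt-Atp6.

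The regional markers named for the comparison separated the tissues in 3 of 4 cases. Tcf7l2, a transcription factor of the Wnt pathway that marks the thalamus and habenula, was 83.3-fold higher in MDTH (ENSMUSG00000024985, GRCm38 chromosome 19, 55741820 to 55933654, plus strand). Its lowest, median and highest MDTH libraries held 23166, 31178 and 37512 normalized counts, and its HPF libraries 151, 265 and 2984. The tissues did not overlap in Tcf7l2. The log2 difference was 6.38 (SE 0.48, limma adjusted p = 6.24e-07), and 6.94 without replicate 2 of the HPF high performers. Amotl1, a scaffold protein of the angiomotin family, averaged 25411 ± 8828 normalized counts in MDTH and 1581 ± 797 in HPF (SD, n = 6 each), a difference of 4.06 (SE 0.18, limma adjusted p = 1.25e-08). Neurod2, a transcription factor of telencephalic excitatory neurons, was 76.8-fold lower in MDTH. It held 73.7, 137 and 269 normalized counts in the lowest, median and highest MDTH library, against 9898, 10926 and 13807 in HPF. Its log2 difference was -6.26 (SE 0.20, limma adjusted p = 8.88e-10).

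Prox1, a transcription factor of dentate granule cells, did not separate the tissues. It averaged 8245 ± 2174 normalized counts in MDTH and 12924 ± 1701 in HPF (SD, n = 6 each). The highest MDTH library, at 11985, lay above the lowest HPF library, at 10147. The difference of -0.68 (SE 0.11, limma adjusted p = 0.000252) passed the test but was 1.6-fold. Prox1 is also known from other neurons of the brain, and by these values it did not mark the HPF libraries.

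**Figure D1:**
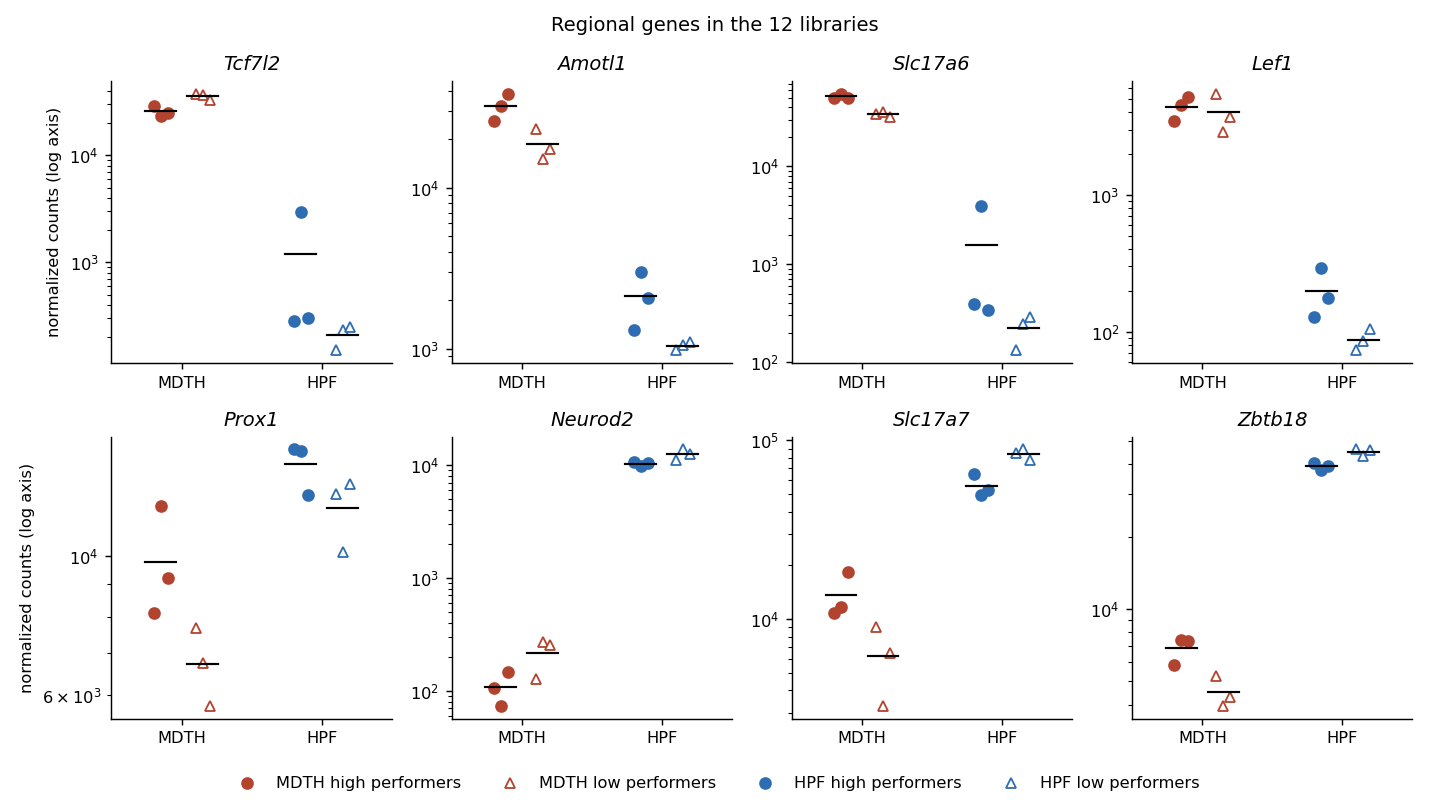
Normalized counts of regional genes in each library, on a log axis, with MDTH (red) left of HPF (blue), circles for high and triangles for low performers and bars for the mean of each group of 3. Tcf7l2, Amotl1, Slc17a6 and Lef1 lie higher in every MDTH library than in any HPF library, Neurod2, Zbtb18 and Slc17a7 lie lower, and Prox1 overlaps. Replicate 2 of the HPF high performers holds 2984 normalized counts of Tcf7l2 and 3954 of Slc17a6.

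At an adjusted p below 0.05, 10637 genes (58.5% of those tested) differed between the tissues, 5326 (29.3%) higher and 5311 (29.2%) lower in MDTH. Because so many passed, a gene is counted below as over 2-fold when it also differed by at least 1 on the log2 scale. By that rule 3971 genes (21.8%) differed, 1941 (10.7%) higher and 2030 (11.2%) lower in MDTH. Counts over 2-fold in the gene lists below are to be read beside these 10.7% and 11.2%. Without any model, 5662 genes (31.1%) had tissues that did not overlap. Of these, 2871 (15.8%) had every MDTH library above every HPF library and 2791 (15.3%) had every MDTH library below every HPF library. The median difference over all genes was -0.02. Differences of at least 5 were found for 42 genes higher and 83 genes lower in MDTH. Of 525 lincRNA genes, 37.3% differed over 2-fold, and of 15128 protein-coding genes 20.9% did.

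**Figure D2:**
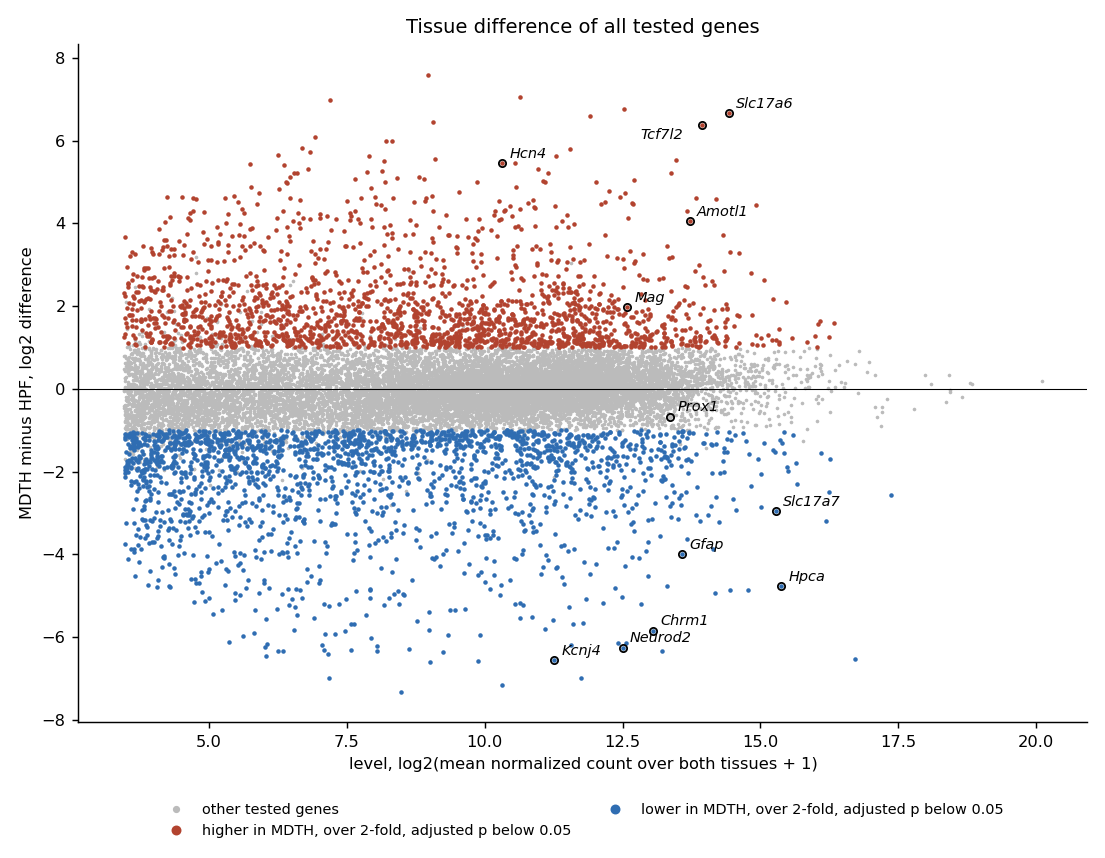
Tissue difference of each tested gene (log2, MDTH minus HPF) against its level (log2 of the mean normalized count over both tissues + 1). Coloured points are the 1941 genes higher and the 2030 genes lower in MDTH over 2-fold, and large differences occur in both directions.

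The smallest p-values belonged to genes of several roles. The 12 genes of each direction were ranked among those over 2-fold without overlap. Predicted-gene, clone and Rik names and pseudogenes were left out of this ranking. The 12 highest-ranked genes higher in MDTH were Sdc3, Hivep1, Dusp26, Efna5, Zic2, Nkd1, Flrt1, Kazn, Elmo1, Pygm, Dpp10 and Gab2, with log2 differences of 1.66 to 3.24. Sdc3 encodes the cell-surface proteoglycan syndecan-3. It held 17738, 26775 and 35992 normalized counts in the lowest, median and highest MDTH library, against 7382, 8049 and 8906 in HPF. Nkd1, an inhibitor of Wnt signalling, held 2117 to 2944 in MDTH and 227 to 332 in HPF. Pygm, the muscle form of glycogen phosphorylase, held 3135 to 4261 in MDTH and 624 to 1000 in HPF. Among the 12 highest-ranked genes lower in MDTH were Sowaha, Fam131a, Itpka, Kbtbd11, Baiap2, Tcf4, Iqgap2, Rin1, Nr3c2, Zeb2 and Cnksr2, with log2 differences of -6.14 to -2.21. Nr3c2 encodes the mineralocorticoid receptor, which binds corticosteroids. It held 1611, 1736 and 1889 normalized counts in MDTH, against 10743, 11820 and 13855 in HPF. Iqgap2, a scaffold that binds calmodulin and small GTPases, was 70.7-fold lower in MDTH, at 153 ± 35.7 normalized counts in MDTH against 10755 ± 1512 in HPF (SD, n = 6 each).

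Promoters of 4 genes are shown because these genes separated the tissues without overlap, Tcf7l2 and Slc17a6 higher and Slc17a7 and Neurod2 lower in MDTH. Each window runs from 250 bases before to 50 bases after the first start listed by RefSeq on GRCm38.p6, 5′ to 3′ on the strand of the gene. The windows are chr19:55741560-55741859 (plus strand) for Tcf7l2, chr7:51621580-51621879 (plus) for Slc17a6, chr7:45163671-45163970 (plus) for Slc17a7 and chr11:98329596-98329895 (minus) for Neurod2. Capitals mark a match to CAGATG, an E-box of the kind that proneural factors such as Neurod2 bind, and TCAAAG, the core of the motif bound by Tcf7l2 and Lef1, was also searched. Both were searched on both strands.
Tcf7l2: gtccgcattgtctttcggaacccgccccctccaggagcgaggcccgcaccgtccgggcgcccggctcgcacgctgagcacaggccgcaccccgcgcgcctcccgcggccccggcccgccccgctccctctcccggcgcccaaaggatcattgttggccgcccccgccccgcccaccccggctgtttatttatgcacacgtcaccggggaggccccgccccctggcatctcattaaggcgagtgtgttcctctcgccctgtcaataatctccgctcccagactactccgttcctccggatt
Slc17a6: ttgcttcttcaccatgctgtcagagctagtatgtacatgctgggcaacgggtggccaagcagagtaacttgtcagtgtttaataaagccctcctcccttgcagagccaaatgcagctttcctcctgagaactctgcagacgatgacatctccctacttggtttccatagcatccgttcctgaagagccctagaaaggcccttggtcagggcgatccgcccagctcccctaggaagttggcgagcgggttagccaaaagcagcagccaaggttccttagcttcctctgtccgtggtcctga
Slc17a7: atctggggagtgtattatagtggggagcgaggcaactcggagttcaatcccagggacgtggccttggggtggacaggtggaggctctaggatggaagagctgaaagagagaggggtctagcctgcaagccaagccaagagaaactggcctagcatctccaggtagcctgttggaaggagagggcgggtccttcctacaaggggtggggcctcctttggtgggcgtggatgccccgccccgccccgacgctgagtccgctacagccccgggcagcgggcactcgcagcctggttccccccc
Neurod2: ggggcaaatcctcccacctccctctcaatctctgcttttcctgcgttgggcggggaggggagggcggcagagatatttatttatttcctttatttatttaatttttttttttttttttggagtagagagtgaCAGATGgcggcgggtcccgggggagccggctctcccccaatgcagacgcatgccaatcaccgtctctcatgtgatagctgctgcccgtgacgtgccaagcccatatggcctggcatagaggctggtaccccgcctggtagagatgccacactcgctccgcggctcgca
The 300-base window of Neurod2 held 1 CAGATG, and the other windows held none. No window held TCAAAG. Of 32851 mouse windows of this length, 5635 (17.2%) held CAGATG and 5257 held TCAAAG. The G and C share was 70.0% for Tcf7l2, 53.7% for Slc17a6, 63.7% for Slc17a7 and 55.3% for Neurod2, with a median of 52.7% over all windows. The matches describe letters only.

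Genes of thalamic relay and projection neurons were higher in MDTH throughout. All 29 tested members of the list passed over 2-fold, against 10.7% of all tested genes, with a median difference of 4.30. Like the other lists, this one was chosen with earlier results of these data known, so its share is a description and not a test. Lef1, a transcription factor of the same family as Tcf7l2, was 31.8-fold higher, with 2894 to 5466 normalized counts in MDTH and 73.4 to 293 in HPF. Ntng1, a membrane-anchored netrin of thalamocortical axons, held 12709, 28476 and 39334 normalized counts in MDTH, against 2181, 2967 and 4405 in HPF. Gbx2, a homeobox gene of the developing thalamus, averaged 3157 ± 759 in MDTH and 43.5 ± 70.7 in HPF (SD, n = 6 each), a difference of 7.05 (SE 0.48, limma adjusted p = 2.55e-07). In replicate 2 of the HPF high performers Gbx2 was at 188, and without that library the difference was 7.59. For Calb2, Hcn4, Grm4, Adra1b and Rgs16 the differences without it were 4.90, 5.77, 4.84, 5.27 and 4.95, against 4.47, 5.45, 4.53, 5.03 and 4.63 with it. The summed level of the thalamic list was 323041 to 717934 normalized counts in MDTH and 42631 to 79549 in HPF, whose maximum was again that library. In bulk tissue, fewer cells of a type and less RNA per cell cannot be told apart.

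Transcription factors split along the boundary between diencephalon and telencephalon. Of 33 tested diencephalic and patterning factors, 24 were higher and 2 lower in MDTH over 2-fold, with a median of 2.51. Zic2, a zinc-finger factor of the dorsal midline, held 3906, 4126 and 4791 normalized counts in MDTH and 342, 477 and 755 in HPF. The members lower in MDTH were Dlx1, at 19.9 to 58.7 in MDTH against 881 to 1766 normalized counts in HPF, and Dlx2, with at most 12.3 in MDTH against 115 to 224 in HPF. Both are homeobox genes of forebrain inhibitory neurons. Of 30 tested telencephalic excitatory factors, 3 were higher and 22 lower, with a median of -2.21. Zbtb18, a repressor needed for cortical and hippocampal neurons, held 3954 to 7454 in MDTH and 38036 to 46214 in HPF. The members higher in MDTH were Cux1, Cux2 and Etv1, known for cortical layers, with differences of 1.41, 2.44 and 1.92. Zeb2, another member of that list, and Tcf4, an E-protein partner of proneural factors, differed by -2.21 and -2.38.

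**Figure D3:**
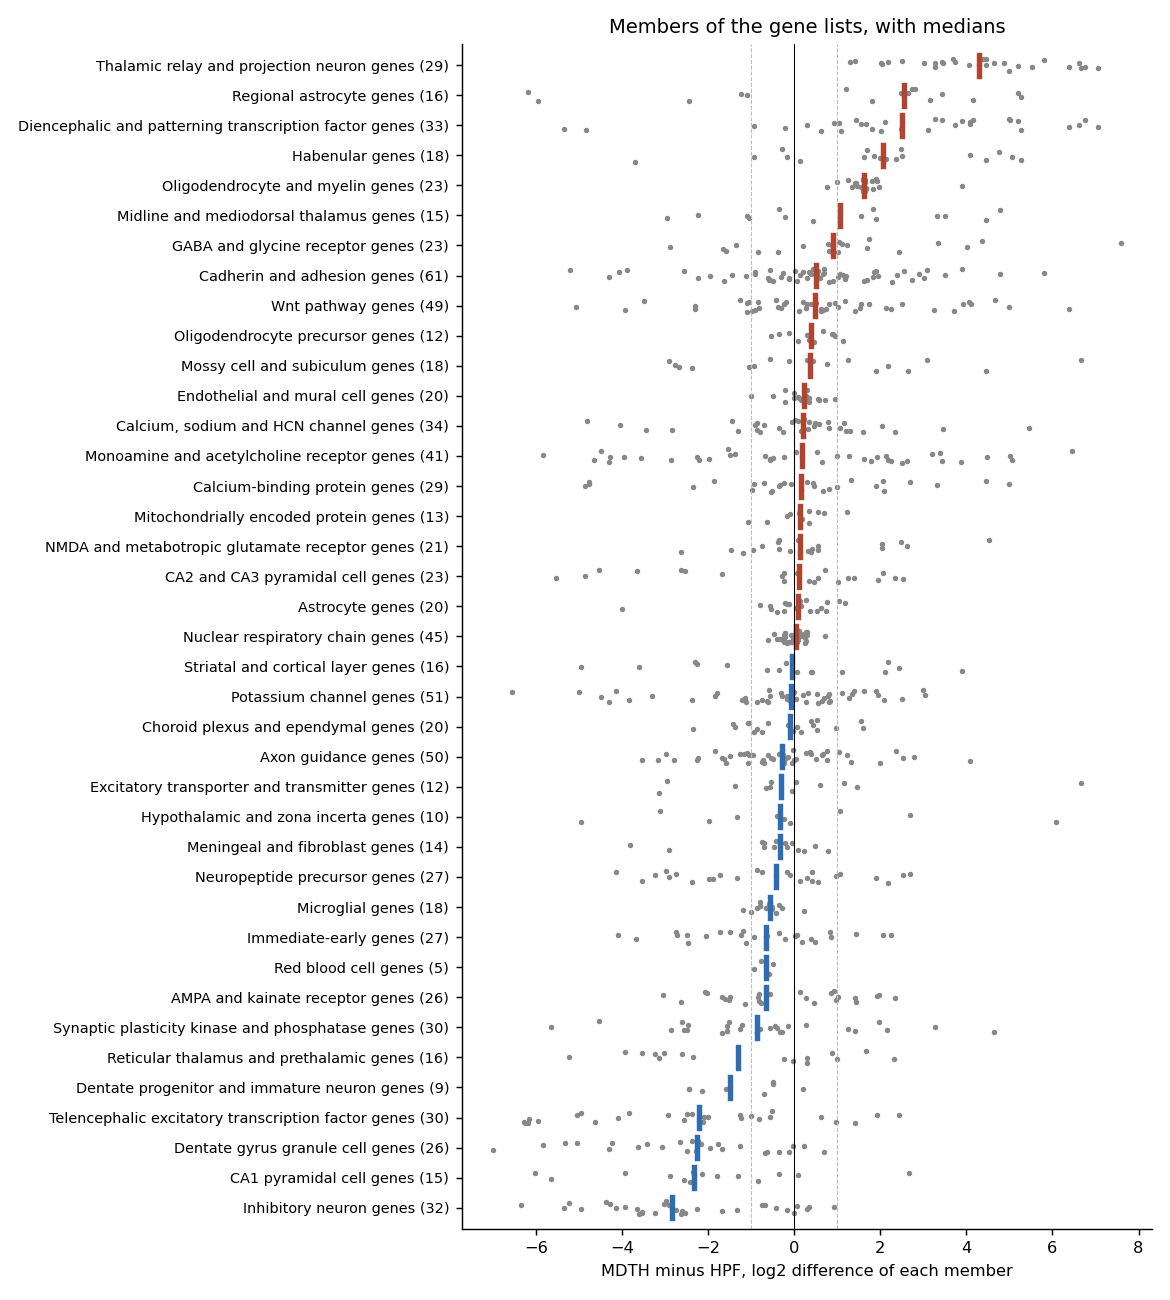
Tissue differences (log2, MDTH minus HPF) of the tested members of the gene lists, with 1 point per gene, the list median as a bar and the number of tested genes in parentheses. Thalamic relay genes reach a median of 4.30 and inhibitory neuron genes one of -2.83, while nuclear respiratory chain genes stay within 1 of 0.

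The lists of hippocampal cell types differed in the share of their members that were lower in MDTH. This share depends on which genes a list holds and is not a measure of the cell types themselves. Of 26 dentate granule cell genes, 19 were lower over 2-fold and none was higher, with a median of -2.26. C1ql2, a secreted synapse organiser of mossy fibres, held 95.1, 215 and 404 normalized counts in MDTH, against 2962, 3839 and 5234 in HPF. Trpc6, a cation channel, held 23.7 to 51.1 in MDTH and 1220 to 1844 in HPF. Of 9 dentate progenitor and immature neuron genes, 5 were lower. Among them was the proliferation marker Mki67, at 11.1 to 32.5 normalized counts in MDTH and 109 to 137 in HPF. Of 15 CA1 genes, 11 were lower and 1, Cpne7, was higher, with a median of -2.32. Mpped1, a gene of CA1 pyramidal cells, held 429 to 1561 in MDTH and 2146 to 11994 in HPF.

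The CA2 and CA3 list did not point one way, with 7 of 23 members higher, 7 lower and a median of 0.12. Its median was 0.40 in high and -0.49 in low performers. Crym, Nptx1 and Rgs14 were lower by 5.53, 4.85 and 4.54. Rgs14, a regulator of G-protein signalling that restrains plasticity in CA2, held 84.7 to 454 normalized counts in MDTH and 3649 to 7272 in HPF. Pcp4, a calmodulin-binding peptide used as a CA2 marker, held 14909 to 52408 in MDTH and 6821 to 8679 in HPF, and Cacng5 and Elavl2 were also higher. The mossy cell and subiculum list had 7 of 18 members higher and 5 lower. Its most different member was Slc17a6, given below with the transporters.

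Genes of the habenula and the midline nuclei were more often higher than lower in MDTH. Of 18 habenular genes, 11 were higher over 2-fold and 1, Lmo3, was lower, with a median of 2.06. Gap43, a growth-cone protein, held 14810 to 22528 normalized counts in MDTH and 2696 to 5124 in HPF, and the protocadherin Pcdh10 held 14678 to 19359 in MDTH and 4761 to 5458 in HPF. The habenular median was 0.19 between high performers' libraries and 4.01 between low performers' libraries. Its summed level was 48359 to 59024 in MDTH high performers, 70255 to 105593 in MDTH low performers and 20748 to 31960 in HPF. Gap43 and Pcdh10 made up a large part of the sum in MDTH high performers, where the median stayed near 0. The share of the summed level that habenular tissue contributed was not tested. With library-name number as a block, which uses 8 libraries in 3 pairs of high and 1 pair of low performers, 7 members were higher. Calls of single genes given below as lost with the block were kept when the number was a random effect over all 12 libraries. Of 15 midline and mediodorsal genes, 8 were higher and 4 lower, and with the block 5 were higher and 2 lower. Their median was 0.44 in high and 2.10 in low performers, and the summed level overlapped, at 88166 to 124446 normalized counts in MDTH and 99573 to 140293 in HPF. Cbln1, a secreted synapse organiser, held 1207, 8966 and 16294 normalized counts in MDTH, against 165, 279 and 431 in HPF. Calb2, the calcium-binding protein calretinin, held 6291 to 16447 in MDTH and 269 to 3199 in HPF, where the next highest library held 645. Epha4, a receptor of axon guidance, was lower by 1.05, a call that ended with the block (-0.74, limma adjusted p = 0.082), with -0.37 in high and -1.72 in low performers.

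Of 16 tested reticular thalamus and prethalamic genes, 8 were lower and 2 higher over 2-fold in MDTH and 6 were neither. Their median was -1.30, with -2.59 in high and -0.49 in low performers. Esrrg and Spp1 were higher, at 1.67 and 2.31. Within high performers alone Spp1 differed by 1.14 (limma adjusted p = 0.0733). The summed level of this list was 31402 in replicate 1 of the MDTH low performers, 5403 to 13861 in the other MDTH libraries and 35346 to 43627 in HPF. The share of these genes that reticular tissue contributed was not tested. Of 10 tested hypothalamic and zona incerta genes, 3 were higher and 3 lower. Foxb1, a forkhead gene of the mammillary region and other parts of the diencephalon, held 189 to 375 normalized counts in MDTH and 0 to 27.6 in HPF, a difference of 6.09 that was 6.70 without replicate 2 of the HPF high performers. Of 16 striatal and cortical layer genes, 4 were higher, among them Rorb, and 5 lower, among them Fezf2 and Lamp5. Their median was -0.88 in high and 0.54 in low performers.

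**Figure D4:**
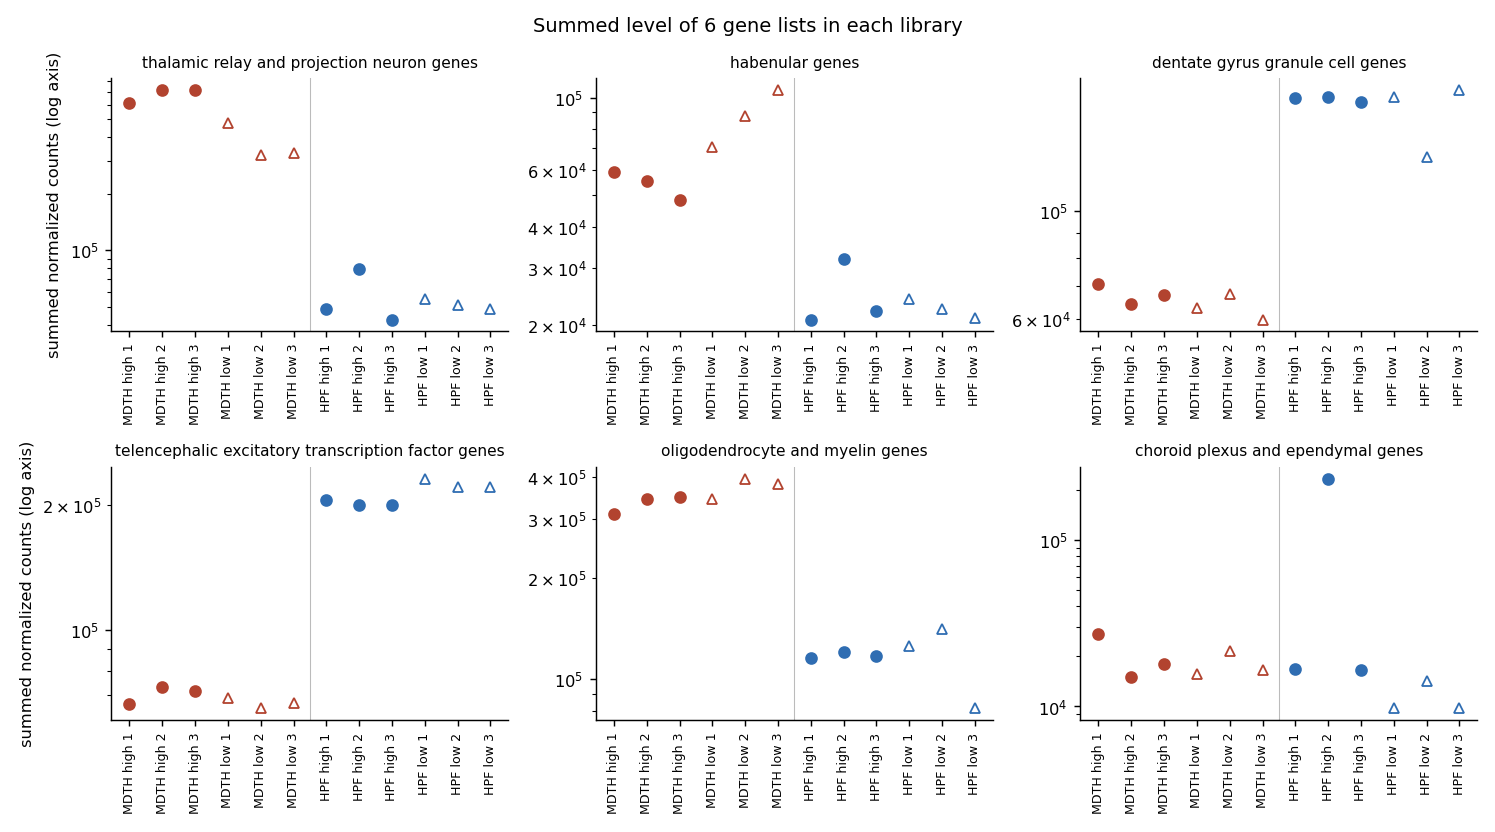
Summed normalized counts of 6 regional and cell type lists in each library, on a log axis, with MDTH libraries (red) left of HPF libraries (blue), circles for high and triangles for low performers. Replicate 2 of the HPF high performers reaches 233267 for choroid plexus and ependymal genes, and habenular sums are 70255 to 105593 in the MDTH low performers and 48359 to 59024 in the MDTH high performers. Gap43 and Pcdh10 make up a large part of the habenular sums of the MDTH high performers.

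The genes for vesicular glutamate transport differed in opposite directions. Slc17a6 held 32071, 43298 and 55025 normalized counts in the lowest, median and highest MDTH library, against 132, 318 and 3954 in HPF, a 101-fold difference (log2 6.66, SE 0.51, limma adjusted p = 6.24e-07). Without replicate 2 of the HPF high performers the log2 difference was 7.24. Slc17a7 held 3283, 9955 and 18331 in MDTH, against 49280, 70879 and 89047 in HPF (log2 -2.96, SE 0.22, limma adjusted p = 4.93e-07). Neither gene overlapped between the tissues. Slc30a3, which loads zinc into vesicles and is known from mossy fibres, held 298 to 1129 in MDTH and 4646 to 6838 in HPF. Slc38a1, a glutamine transporter, held 17014 to 23244 in MDTH and 6119 to 8780 in HPF. Of the 12 genes of this list, 3 were higher and 3 lower over 2-fold.

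Genes of inhibitory neurons were lower in MDTH. Of 32 tested members, 23 were lower over 2-fold and none higher, with a median of -2.83. Lhx6, a factor of interneurons from the medial ganglionic eminence, held 12.3, 22.5 and 43.9 normalized counts in MDTH, against 615, 689 and 838 in HPF. The neuropeptide gene Vip held 12.7 to 23.6 in MDTH and 189 to 552 in HPF. Gad1, which makes GABA, averaged 2383 ± 3351 in MDTH and 16225 ± 1818 in HPF (SD, n = 6 each), with a highest MDTH library of 9170. That library was replicate 1 of the low performers, which also had the highest MDTH level of the whole inhibitory list, at 84182 normalized counts.

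Ionotropic glutamate receptors differed by subunit. Of 26 AMPA and kainate receptor genes, auxiliary subunits included, 6 were higher and 9 lower over 2-fold, with a median of -0.66. Gria2, the subunit that limits calcium entry through AMPA receptors, held 11120, 13130 and 14375 normalized counts in MDTH, against 49481, 54433 and 56895 in HPF. Among the auxiliary TARP subunits, Cacng8 was lower, at 430 to 936 in MDTH against 4835 to 6926 in HPF, and Cacng4 was higher, at 4506 to 6975 in MDTH against 1135 to 1909 in HPF. Of 21 NMDA and metabotropic receptor genes, 5 were higher and 3 lower. Grin2d was higher by 2.49 and Grin2a lower by 1.46 in MDTH, both encoding NMDA receptor subunits. Grm4, a presynaptic metabotropic receptor, averaged 8889 ± 2616 in MDTH and 419 ± 277 in HPF (SD, n = 6 each). The postsynaptic scaffold gene Homer3 was lower by 2.62.

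GABA and glycine receptor genes were more often higher than lower in MDTH, at 11 and 4 of 23 over 2-fold, with a median of 0.91. Subunits of GABA-A receptors also went both ways. Gabra3 held 9894, 11143 and 14205 normalized counts in MDTH, against 641, 1111 and 2254 in HPF. Gabra5, known from extrasynaptic receptors of hippocampal pyramidal cells, held 1284, 1608 and 1833 in MDTH, against 10433, 11758 and 12429 in HPF. Gabrg3 was higher by 1.69, and Kctd12, an auxiliary subunit of GABA-B receptors, was lower by 1.65. The glycine receptor gene Glra1 had the largest difference of this list, 7.59 (SE 0.71, limma adjusted p = 3.2e-06), with 446 to 1464 normalized counts in MDTH and 0.618 to 38.8 in HPF, where the next highest library held 6.22.

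Ion channel lists held large differences in both directions. Of 51 potassium channel genes, 11 were higher and 13 lower over 2-fold. Kcnj4, an inward rectifier of forebrain neurons, was 94.8-fold lower in MDTH, at 29.1, 50.9 and 105 normalized counts in MDTH against 4057, 4696 and 6073 in HPF. Kcnip2, a subunit of A-type channels, held 423 to 943 in MDTH and 8894 to 11045 in HPF. The leak channel gene Kcnk3 held 2636 to 4160 in MDTH and 380 to 601 in HPF, and Dpp10, an auxiliary subunit of A-type channels, was higher by 3.04. Of 34 calcium, sodium and HCN channel genes, 9 were higher and 6 lower. T-type calcium channels, which drive burst firing of thalamic neurons, differed by subunit. Cacna1g held 14551, 20083 and 21173 normalized counts in MDTH, against 761, 1813 and 2841 in HPF, and Cacna1h held 417, 817 and 1164 in MDTH, against 9830, 12666 and 15012 in HPF. Hcn4, a pacemaker channel, was 43.8-fold higher in MDTH, at 2480 ± 617 normalized counts in MDTH against 67.4 ± 60.7 in HPF (SD, n = 6 each). The sodium channel subunit gene Scn3b was lower by 1.32.

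Genes of calcium signalling went both ways. Among 29 calcium-binding protein genes, 8 were higher and 5 lower, with a median of 0.15. Hpca, which encodes hippocalcin, held 1468, 3339 and 5051 normalized counts in MDTH, against 63371, 75172 and 108052 in HPF. Nrgn, which encodes the calmodulin-binding protein neurogranin, was 29.0-fold lower. Necab1 and Rcan2, a neuronal calcium-binding protein and a calcineurin regulator, were higher by 3.31 and 2.70. Among 30 plasticity kinase and phosphatase genes, 6 were higher and 14 lower, with a median of -0.87. The calcineurin catalytic subunit gene Ppp3ca held 16156 to 29283 in MDTH and 121058 to 140697 in HPF. Itpka, an inositol trisphosphate kinase of dendritic spines, differed by -5.65. Camk2d, a CaM kinase subunit, was higher by 2.14, and Rgs16, a regulator of G-protein signalling, by 4.63.

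Receptors for monoamines and acetylcholine were divided, with 17 of 41 genes higher and 14 lower over 2-fold. The list median was -0.58 in high and 0.97 in low performers. Adra1b, an alpha-1 adrenergic receptor, held 2194, 3912 and 6506 normalized counts in MDTH, against 83.6, 101 and 285 in HPF. Chrnb2, a nicotinic receptor subunit, held 10340 to 13596 in MDTH and 2990 to 3708 in HPF. Chrm1, a muscarinic receptor, was 57.7-fold lower in MDTH, at 301 ± 93.9 normalized counts in MDTH against 16708 ± 1292 in HPF (SD, n = 6 each). Htr1a, a serotonin receptor, held 19.6 to 357 in MDTH and 1376 to 3086 in HPF. Of 27 neuropeptide precursor genes, 5 were higher and 10 lower, and with the block 3 were higher. Their median was -1.38 in high and 0.16 in low performers. Npy was lower by 3.53 and Vip by 4.14, both peptides of interneurons. Adcyap1, which encodes PACAP, was higher by 2.52 with overlapping tissues, at 221 to 1475 in MDTH and 24.5 to 256 in HPF, and within high performers alone it differed by 1.72 (limma adjusted p = 0.127). Nxph1, a neurexin ligand, was higher by 2.18, and Gal, the precursor of galanin, held 52.2 to 460 in MDTH and 3.44 to 40.2 in HPF.

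Averaged over high and low performers, Gpr12, the orphan receptor named in the midline list, was modestly higher in MDTH. Its MDTH libraries spread more widely than its HPF libraries. It averaged 2165 ± 806 normalized counts in MDTH and 1497 ± 86.0 in HPF (SD, n = 6 each), and the tissues overlapped. The difference was 0.44 (SE 0.11, limma adjusted p = 0.00397).

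Adhesion and Wnt genes leaned towards MDTH. Of 61 cadherin and adhesion genes, 22 were higher and 10 lower over 2-fold, with a median of 0.50. Cdh7, a classical cadherin, held 1474 to 2288 normalized counts in MDTH and 205 to 511 in HPF, and Pcdh8, an activity-regulated protocadherin, 126 to 1019 in MDTH and 4787 to 7155 in HPF. Cntn6, a contactin, was higher by 3.08. Of 49 Wnt pathway genes, 17 were higher and 9 lower, with a median of 0.48. The secreted inhibitors Frzb and Dkk3 were lower by 3.49 and 3.93, whereas the factors Tcf7l2 and Lef1 and the feedback inhibitor Nkd1 were higher. Of 50 axon guidance genes, 8 were higher and 16 lower, with a median of -0.28. Sema6a, a transmembrane semaphorin, held 2916 to 4904 in MDTH and 445 to 696 in HPF, and Efna5, an ephrin that guides thalamocortical axons, 1106 to 1485 in MDTH and 172 to 308 in HPF. Plxna4, a plexin that transduces semaphorin signals, and the netrin receptor gene Unc5a were lower by 1.67 and 2.97.

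Myelin genes were higher in MDTH as a group. Of 23 oligodendrocyte and myelin genes, 21 were higher over 2-fold and none lower, with a median of 1.63. Mag, an adhesion protein of myelin, held 8836, 9826 and 10672 normalized counts in MDTH, against 1818, 2483 and 3208 in HPF. Fa2h, a fatty acid hydroxylase of myelin lipids, was higher by 1.81. Summed over the list, the level was 311462 to 396767 normalized counts in MDTH and 81516 to 140564 in HPF. Oligodendrocyte precursor genes differed less. Sox10, a factor of the whole lineage, was the 1 of 12 over 2-fold, at 1.14, and with the block none was.

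Averaged over high and low performers, astrocyte genes shared by both regions showed small differences, with a median of 0.09. The median was -0.16 in high and 0.42 in low performers. Over 2-fold, 2 of 20 were higher and 1 lower, against 10.7% higher and 11.2% lower of all tested genes. The one lower was Gfap, an intermediate filament, at 442, 1377 and 3349 normalized counts in MDTH, against 14221, 19125 and 37436 in HPF. Atp1b2 and Gjb6 were higher by 1.17 and 1.03. A list of astrocyte genes known to differ between regions separated fully, with 11 of 16 higher and 5 lower. Kcnj10, the inward rectifier of astrocytes, held 40937 to 51464 in MDTH and 10225 to 15268 in HPF, and Slc6a9, a glycine transporter, held 6120 to 7271 in MDTH and 992 to 1600 in HPF. Lhx2 was lower by 1.23. Of 18 microglial genes, 13 were lower and none higher at the adjusted p, against 29.2% lower of all tested genes. Of these, 2 were over 2-fold, Gpr34 and Aif1, and the list median was -0.57. None of 20 endothelial and mural genes reached 2-fold. Flt1, a receptor for VEGF, was higher by 0.72, a call that ended with the block (0.55, limma adjusted p = 0.0533) and in high performers alone (0.39, limma adjusted p = 0.309), and Abcc9, a pericyte gene, was higher by 0.95.

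Choroid plexus genes were high in 1 HPF library. Of 20 tested choroid plexus and ependymal genes, 2 were higher and 1 lower over 2-fold, and with the block none was higher and 2 were lower. Their median was -1.36 in high and 0.58 in low performers. Ttr, which encodes transthyretin of the choroid plexus, held 1469 to 9695 normalized counts in MDTH and 2986 to 151267 in HPF, the maximum being replicate 2 of the high performers. Its difference of -1.42 did not pass the test (limma adjusted p = 0.115). Prlr was higher by 1.60, a call that ended with the block (1.12, limma adjusted p = 0.154), in high performers alone (0.50, limma adjusted p = 0.616) and in the fit of all 18 libraries (limma adjusted p = 0.124). Its values were 621 to 1218 in MDTH, 2028 in that HPF library and 143 to 315 in the other HPF libraries. Otx2 was higher by 1.56, likewise lost with the block (1.15, limma adjusted p = 0.242), in high performers alone (0.44, limma adjusted p = 0.672) and in the fit of all 18 libraries (limma adjusted p = 0.0586). Kl, a co-receptor for fibroblast growth factors, was lower by 2.36. Without replicate 2 of the HPF high performers the differences of Prlr, Otx2 and Kl were 2.05, 2.04 and -1.93. Of 14 meningeal genes, Ogn and Lum were lower by 3.82 and 2.92. Of 5 red blood cell genes none reached 2-fold. The globins Hba-a1 and Hba-a2, near-identical copies whose reads may be split by the counting, were lower by 0.66 and 0.76, calls lost with the block (-0.60 and -0.61, limma adjusted p = 0.199 and 0.169).

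Immediate-early genes, which neurons transcribe soon after activity, were more often lower than higher in MDTH, at 12 and 3 of 27, with a median of -0.65. Egr3 held 65.2, 133 and 182 normalized counts in MDTH, against 1750, 1945 and 2219 in HPF. Arc, a regulator of AMPA receptor trafficking, held 363 to 933 in MDTH and 3310 to 7080 in HPF. Dusp1, a MAP kinase phosphatase, was higher, at 1051 to 3624 in MDTH against 357 to 576 in HPF. Sik1, a salt-inducible kinase, was higher by 1.45, which did not pass with the block (0.91, limma adjusted p = 0.0713) or in high performers alone (0.49, limma adjusted p = 0.0588).

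Nuclear respiratory chain genes were close to equal when high and low performers were averaged. Of 45 nuclear genes, 12 were higher and 12 lower in MDTH at the adjusted p, none over 2-fold, with a median of 0.04. Of all tested genes, 29.3% were higher and 29.2% lower. The list median was 0.30 in high and -0.20 in low performers. Its summed level was 408176 to 446434 normalized counts in MDTH high performers and 326921 to 362513 in MDTH low performers. In HPF it was 337164 to 382684. Sdha, of complex II, was higher by 0.29 and Uqcrfs1, of complex III, lower by 0.35, the second call lost with the block (-0.13, limma adjusted p = 0.636). Within low performers alone Sdha differed by 0.12 (limma adjusted p = 0.16). Of 13 mitochondrially encoded genes, mt-Atp6 was the 1 over 2-fold. Its reads may be shared with nuclear copies. It held 25179 to 120129 normalized counts in MDTH and 8699 to 76788 in HPF, with overlapping tissues. Its difference of 1.23 (limma adjusted p = 0.0385) was lost with the block (0.60, limma adjusted p = 0.247), in high performers alone (0.19, limma adjusted p = 0.849) and without replicate 2 of the HPF high performers (limma adjusted p = 0.0782).

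The tissue difference was also taken within each performance group, from separate libraries. In high performers 1693 genes (9.3%) were higher and 2064 (11.3%) lower in MDTH over 2-fold, and in low performers 2200 (12.1%) and 1832 (10.1%). Of the 3757 genes called in high performers, 92.8% had the same sign in low performers and 62.2% were called there too. Of the 4032 called in low performers, 57.9% were also called in high performers. Over all tested genes, which are not independent replicates, the differences correlated with Pearson's r = 0.72. The MDTH libraries of high and low performers differ in the style of their names, so handling and performance cannot be told apart there. In HPF, the letters in the library names and most lane tags also differ between high and low performers. Handling and performance cannot be told apart in HPF either.

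The interaction between tissue and performance passed for 3284 genes (18% of those tested), for 2025 without replicate 3 of the MDTH low performers and for 4582 with the name number as a random effect. The genes with the smallest interaction p among those over 2-fold were Sdc3, Cygb, BC030500, Nos1 and Ltk. Cygb, which encodes cytoglobin, held 526, 479 and 427 normalized counts in MDTH of high performers and 3643, 4860 and 6122 in MDTH of low performers. In HPF it held 3793, 4014 and 4106 in high and 4611, 3788 and 3193 in low performers. Only the MDTH libraries of high performers were set apart. Nos1, the neuronal nitric oxide synthase, was also lowest in MDTH of high performers, but its other MDTH libraries lay below every HPF library too. It held 313, 270 and 230 normalized counts in MDTH of high performers and 4783, 3342 and 2655 in MDTH of low performers, against 4890 to 5871 in HPF of high and 5840 to 7830 in HPF of low performers. The tissue difference of Cygb was -3.06 in high and 0.32 in low performers (interaction -3.38, limma adjusted p = 0.000172), and that of Nos1 was -4.27 and -1.01 (interaction -3.26, limma adjusted p = 0.000311). BC030500 had differences of -3.30 and 0.80, and its overall call of -1.25 was lost with the block (-2.24, limma adjusted p = 0.0611). Ltk, a receptor tyrosine kinase, had differences of -2.11 in high and -0.27 in low performers, where it did not pass (limma adjusted p = 0.108).

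CA1 genes differed between the HPF libraries of high and low performers, most of whose lane tags also differ. Mpped1 held 718, 429 and 459 normalized counts in MDTH of high performers, against 8274, 6567 and 11994 in their HPF. It held 1531, 1561 and 1421 in MDTH of low performers, against 2213, 3586 and 2146 in their HPF. The CA1 median was -3.71 in high and -0.81 in low performers, and the summed CA1 level was 33763 to 35804 in MDTH and 61945 to 82811 in HPF of high performers. In low performers it was 23353 to 26720 in MDTH and 28573 to 32893 in HPF. The thalamic list varied in MDTH, with sums of 613512 to 717934 in high and 323041 to 477761 in low performers. The placement of the dissections along the hippocampus and thalamus is not given in the labels, and its part in these values was not tested.

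**Figure D5:**
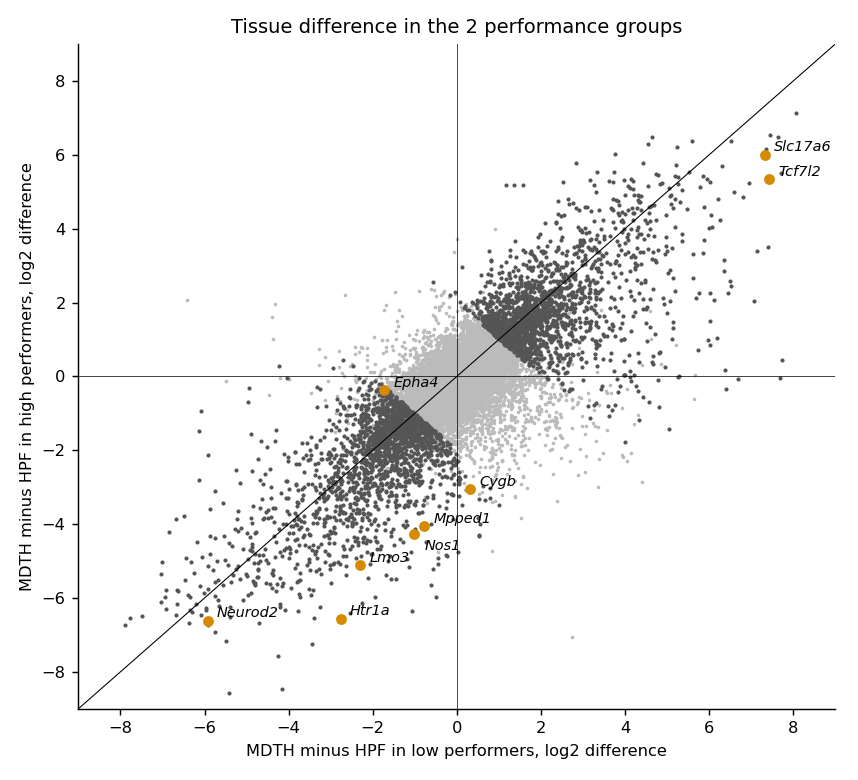
Tissue difference within high performers (vertical axis, log2) against that within low performers (horizontal axis, log2), 1 point per tested gene, dark where the overall difference was called over 2-fold, with the diagonal drawn. Most genes lie along the diagonal, with Pearson's r = 0.72 over genes, and Cygb, Nos1, Htr1a, Lmo3 and Mpped1 lie below it.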

How the data were processed

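RNA was sequenced from brain tissue of Diversity Outbred mice with stranded TruSeq mRNA libraries, per the labels' protocols. The values are a signal that the authors made by normalizing gene counts, as the deposited table's name says, with 1 value for each gene in each library. Per the submitters' processing notes the tools were STAR, Salmon and DESeq2, whose roles and versions are not stated. The genome build and the use of strand in counting are not given in the sources used here. Reads of genes that overlap on opposite strands may therefore be mixed. Gene coordinates come from GENCODE M21 on GRCm38, which held 48058 (99.2%) of the gene identifiers, and promoters from RefSeq on GRCm38.p6. All columns were matched to samples by library name.

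Depth was estimated from the worth of 1 read in low values. Within 0.02 of a read, 41.7% to 71.0% of low values were whole in MDTH and 43.7% to 57.1% in HPF, so whole reads were not recovered and count tests were not run. Genes averaging 10 or more over 12 libraries were fitted with limma 3.58.1 in R 4.3.3 on log2(normalized count + 1), with 4 group means, a mean-variance trend, two-sided tests and Benjamini-Hochberg adjustment over 18196 genes. A call needs an adjusted p below 0.05, and a call over 2-fold also a log2 difference of at least 1. On simulated data the fit recovered 97% of genes changed by 1 and 100% of those changed by 2 on the log2 scale, and called 17 unchanged genes. The simulated libraries were independent, with 200 changed genes and the same dispersion for every gene. They held no performance effect, no pairs and no library standing apart, so these rates need not hold for the real libraries.

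Library names carry numbers, 4 of which occur in both tissues within a performance group. Libraries with equal name numbers deviated together, with r of 0.41 to 0.50 in all 4 pairs, against -0.28 to 0.16 in 14 other pairs, so these numbers were taken as pairs. The block uses the 8 libraries in these pairs, 3 of high and 1 of low performers, so it weights high performers more. A fit with the number as a random effect used all 12 libraries. Replicate numbers in the titles did not pair. The labels do not say that the libraries of a group came from separate animals, so the p-values cover only the spread among libraries, which may be technical. Python 3.11.15, pandas 2.3.3, numpy 2.4.6 and matplotlib 3.10.9 were also used.

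The members and the 39 gene lists were chosen with earlier results of these data known. Named genes were the 4 markers, the 12 genes with the smallest p in each direction over 2-fold without overlap, the 2 or 3 members of each list with the smallest p in each direction over 2-fold (or the 2 with the smallest p where none passed), and the 5 genes with the smallest interaction p. The 12 in each direction leave out predicted-gene, clone and Rik names and pseudogenes. Gpr12, Gbx2, Glra1, Gad1 and Ttr fall outside this rule and were chosen after their values were seen. List counts are over members that passed the filter, 855 of 881 list genes. A few named genes are left out of the text. No set test was run.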

Additional observations from a re-analysis of the deposited data

Results flagged for a closer look

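Among the 147 named genes, the tissue difference itself differed between performance groups for 45 (30.6%), by limma's interaction at an adjusted p below 0.05, against 18% of all tested genes. The named genes include 5 chosen by this interaction. The 44 given here carry in parentheses the difference in high performers minus that in low performers, log2. The most negative values were found for BC030500 (-4.09), Htr1a (-3.80), Cygb (-3.38), Mpped1 (-3.28), Nos1 (-3.26), Lmo3 (-2.83), Pcdh8 (-2.49), Igfbp4 (-2.46), Spp1 (-2.35), Nptx1 (-2.25), Gfap (-2.14), C1ql2 (-2.14) and Sik1 (-1.91). Intermediate negative values were found for Ltk (-1.84), Ndst4 (-1.76), Unc5a (-1.66), Baiap2 (-1.60), Dkk3 (-1.58), Nrgn (-1.45), Cacna1h (-1.38), Cdh7 (-1.30), Etv1 (-1.29), Kazn (-1.17), Sdc3 (-1.13) and Gabra3 (-1.09). Smaller negative values were found for Egr3 (-0.96), Dusp26 (-0.90), Sowaha (-0.90), Esrrg (-0.89), Zeb2 (-0.85), Flrt1 (-0.85), Kbtbd11 (-0.75), Hivep1 (-0.61), Pygm (-0.60) and Tcf4 (-0.48). Positive values were found for Cacng5 (2.17), Slc17a7 (1.80), Homer3 (1.44), Epha4 (1.35), Pcp4 (1.34), Uqcrfs1 (0.96), Zbtb18 (0.81), Ppp3ca (0.54) and Sdha (0.33).

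In 23 of 294 checks of a named gene within the 6 libraries of a tissue, 1 library lay far from the others, the gap to its nearest neighbour as a share of the whole range exceeding Dixon's 95% critical value. Chance gives about 1 in 20 such groups. The share of the range is given in parentheses. For 13 genes that library was replicate 2 of the HPF high performers, Tcf7l2 (0.947), Slc17a6 (0.932), Prlr (0.909), Otx2 (0.886), Foxb1 (0.877), Adra1b (0.874), Calb2 (0.872), Hcn4 (0.871), Grm4 (0.851), Rgs16 (0.822), Grin2d (0.696), Kl (0.678) and Sema6a (0.651), always as the highest HPF library. Replicate 3 of the MDTH high performers was highest for Dlx1 (0.65) and Gal (0.884). Replicate 1 of the MDTH high performers was highest for Nxph1 (0.683) and lowest for Flt1 (0.662). Replicate 1 of the MDTH low performers was highest for Npy (0.817). Foxb1 was also highest in replicate 2 of the MDTH low performers (0.771). Replicate 2 of the HPF low performers was highest for Dlx6 (0.765) and lowest for Rfx3 (0.647). Replicate 3 of the HPF high performers was highest for Flt1 (0.752) and Rorb (0.646).

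Of 78 checks of the summed level of a gene list, 7 met the same limit. In HPF, replicate 2 of the high performers was highest for thalamic relay and projection neuron genes (0.675), habenular genes (0.706), diencephalic and patterning transcription factor genes (0.652) and choroid plexus and ependymal genes (0.968). Replicate 1 of the MDTH low performers was highest in MDTH for reticular thalamus and prethalamic genes (0.675) and inhibitory neuron genes (0.808). In HPF, replicate 2 of the low performers was lowest for dentate gyrus granule cell genes (0.797).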

How the results depend on the processing

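The main counts were recomputed under up to 27 alternatives each. Most stayed within 1.5 times the reported count. With the replicate block by library-name number, 3529 genes were lower in MDTH, and with the block by title number the interaction passed for 1979 genes, against 4582 with the name number as a random effect. The name-number block fits only 8 libraries, 3 pairs of high and 1 of low performers. limma's treat test against a 2-fold minimum called 936 genes higher and 988 lower. With 3 libraries a tissue, genes without overlap numbered 5119 (higher) and 5106 (lower) for the high group, and 5488 (higher) and 5411 (lower) for the low group. Leaving out each library in turn gave 5030 to 5237 genes higher and 4983 to 5215 lower, 1882 to 1974 and 1958 to 2070 over 2-fold, 2927 to 3088 and 2887 to 3001 without overlap, and 2025 to 3415 interactions. The lowest interaction count came without replicate 3 of the MDTH low performers. Of the 147 named genes, 132 kept direction and call under every alternative. Directions turned for Uqcrfs1 (0.13 in high performers, adjusted p = 0.276), Cygb (0.32 in low performers, adjusted p = 0.238) and BC030500 (0.80 in low performers, adjusted p = 0.0329), all by limma; the cause was not tested. With the name-number block 10 named genes lost their call, each given in the report, and no other named call changed. With the number as a random effect over 12 libraries all 147 named genes kept direction and call. Leaving out HPF low 2, HPF high 2 or 3, or MDTH high 2 ended the calls of Hba-a1, Hba-a2 and mt-Atp6. MDTH low 1 did so too. MDTH low 3 and MDTH high 1 ended both globin calls, HPF high 1 that of Hba-a2, and HPF low 3, MDTH low 2 and MDTH high 3 that of mt-Atp6. Their log2 differences there were -0.63 to -0.51 for Hba-a1, -0.84 to -0.49 for Hba-a2 and 0.88 to 1.30 for mt-Atp6. Rescaling moved the median of all genes by -0.07 at most. Depth limits the genes near 0 in either tissue, such as Glra1 and Foxb1 in HPF, whose differences depend on the added 1.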
